A study of Homo sapiens with 2 samples.

Results

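The BCL2 family genes described here are 10 genes taken by symbol from the deposited count table of 60623 named genes. They are the anti-death genes BCL2L1 and MCL1, the effectors BAX and BAK1, and the BH3-only genes BCL2L11, BID, BBC3, PMAIP1, BIK and HRK. All 10 were among the 13217 genes that averaged 1 CPM or more (expected counts scaled to the size of the library) and so entered every comparison. The RNA came from HCT116, a line of epithelial cells grown out of a human colon cancer, given as wild type in the labels. The siControl culture received a non-specific siRNA and the siKAT7 culture one against KAT7, both by transfection with Lipofectamine. KAT7, also called HBO1, is a histone acetyltransferase, and the study asked how its knockdown affects transcription. The sources used here do not give the time from transfection to harvest or the number of siRNA duplexes. Each group had 1 library, so no difference below has a replicate check or a p-value of its own, and every interval covers counting error only.

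BCL2 proteins set whether the outer membrane of the mitochondrion is opened during apoptosis. The effectors BAX and BAK form pores that release cytochrome c, which activates caspases through the apoptosome. BCL-XL (from BCL2L1) and MCL-1 hold the effectors and the BH3-only proteins in check, and BH3-only proteins bind that same groove through their BH3 helix or activate the effectors directly. Much of the regulation of MCL-1, BID and BAX acts on the protein, which RNA does not show.

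The stretch that encodes the BH3 core is shown for the 10 members because it is the element through which the anti-death and pro-death proteins meet. A search of the annotated main protein of each gene for a leucine, any 3 residues, a glycine or alanine and an aspartate found 1 such core in each of 10 of 10 members. The pattern is short and was found in 24.9% of 19505 proteins searched, so a match alone does not mark a BH3 domain. Each line gives 39 coding bases, 5′ to 3′ on the gene's strand (GENCODE 29 on GRCh38), and the capitals mark the codons of the core.
BCL2L1: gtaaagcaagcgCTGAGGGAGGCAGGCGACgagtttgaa
MCL1: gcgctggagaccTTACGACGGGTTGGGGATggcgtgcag
BAX: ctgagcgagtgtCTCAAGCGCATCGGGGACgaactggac
BAK1: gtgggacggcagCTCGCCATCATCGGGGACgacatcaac
BCL2L11: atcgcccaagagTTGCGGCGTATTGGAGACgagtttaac
BID: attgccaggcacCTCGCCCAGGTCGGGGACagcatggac
BBC3: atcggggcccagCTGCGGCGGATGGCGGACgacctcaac
PMAIP1: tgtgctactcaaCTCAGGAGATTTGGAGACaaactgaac
BIK: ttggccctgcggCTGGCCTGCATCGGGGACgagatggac
HRK: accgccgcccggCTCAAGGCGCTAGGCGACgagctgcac
In BBC3 the small residue before the aspartate is encoded by an alanine codon, and in the other 9 it is encoded by a glycine codon.

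The libraries held 23450326 expected counts in siControl and 23533134 in siKAT7 over the named genes. KAT7 itself had 442.94 of them in siControl against 287.22 in siKAT7 (18.2 and 12.7 CPM). Its log2 ratio, siKAT7 over siControl, was -0.52 (95% counting interval -0.74 to -0.31), so 0.696 of the siControl level remained. The epithelial keratins marked both libraries as labelled (KRT8 at 5720 CPM in siControl and 5871 CPM in siKAT7). Of the colon markers, CDX2 had 13.9 and 17.2 CPM, with a log2 ratio of 0.31 (0.09 to 0.52), while CDH17 and VIL1 had under 1 CPM in both. All 6 measured epithelial and colon markers lay above 0, with a median of 0.12, where 49.3% of all genes lay above 0. Among them were KRT19 at 0.20 (0.18 to 0.21) and CDH1 at 0.21 (0.13 to 0.29). EPCAM and KRT18, both at 0.00, had intervals that included 0. When scaled by total counts, the median was 0.01. EPCAM, KRT8 and KRT18 were then below 0, at -0.10, -0.07 and -0.10, and KRT19, CDH1 and CDX2 above it. The part of these markers in the differences below was not tested. Summed CPM of the 4 fibroblast markers was 31.7 and 31.6, nearly all of it COL1A1, that of the 4 blood cell markers 0.740 and 1.59, and that of the 3 endothelial markers 0.822 and 0.970. PTPRC, LUM, PECAM1 and CDH5, defining markers of those cell types, had 0 counts in both libraries. Scaling used TMM factors, and scaling by total counts shifts log2 ratios by a median of -0.107.

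The 10 members differed little in size between the libraries, with log2 ratios from -0.34 for BCL2L11 to 0.68 for HRK. The median was 0.20, against -0.00 over all 13217 genes. Of the members, 7 lay above 0 and 3 below. One member, HRK, was at least 1.5-fold higher with an interval that excluded 0, and 0 were lower by that rule. The same rule called 3.92% of all genes higher and 3.91% lower. Intervals excluded 0 for 7 members on the higher side and 2 on the lower, where 23.0% and 22.0% of all genes did so. Under total-count scaling the tally was 5 higher and 3 lower, beside 13.3% and 35.6% of all genes. Most members have high counts and thus narrow intervals, and among genes of at least 10 CPM, 56.7% had an interval that excluded 0 on either side. All 9 members of at least 10 CPM lay inside the central 95% of genes at that level, which ran from -0.47 to 0.50.

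**Figure D1:**
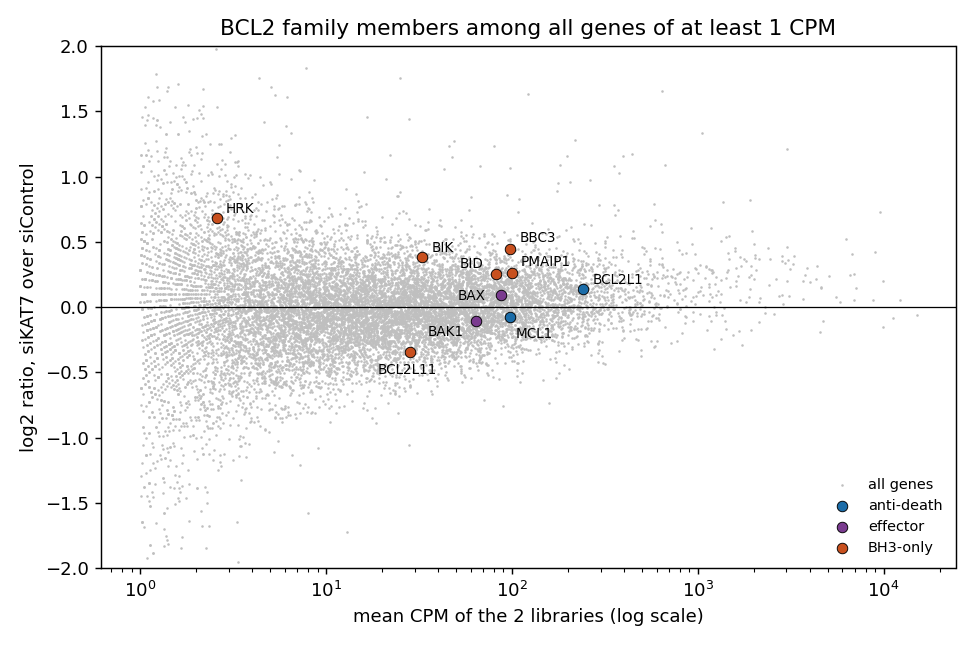
Log2 ratio, siKAT7 over siControl, against the mean CPM of the 2 libraries on a log scale; grey points are the 13217 genes of at least 1 CPM and coloured points the 10 members by role. HRK lies among low-count genes with a wide spread, and the other 9 members lie inside the range of well-counted genes; 48 genes fall beyond the vertical axis.

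The anti-death genes differed little between the libraries, with estimates on either side of 0. BCL2L1, which encodes BCL-XL (ENSG00000171552, chr20:31664452-31723989, minus strand, core in exon 2), had 5623.56 counts in siControl against 5761.62 in siKAT7 (231 and 254 CPM). Its log2 ratio was 0.14 (0.08 to 0.19). BCL2L1 thus had the highest count of the family in both libraries and was slightly higher in siKAT7. MCL1, which encodes a short-lived guardian of BAK (ENSG00000143384, chr1:150574551-150579738, minus strand, core in exon 1), had 2446 and 2166 counts, or 101 and 95.5 CPM. Its log2 ratio of -0.07 had an interval that included 0 (-0.16 to 0.01). Under total-count scaling the BCL2L1 value was 0.03, with an interval that included 0 (-0.02 to 0.08), and the MCL1 value was -0.18, with an interval below 0 (-0.26 to -0.10). The antisense gene ABALON overlaps BCL2L1 by 1424 exon bases and had 332.44 and 353.38 counts. The sources used here give no strand setting for the counting, so reads of the overlap cannot be told apart. The sum of both rows gave 0.14 (0.09 to 0.19), close to BCL2L1 alone.

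The effectors also lay on either side of 0, by small amounts. BAX (ENSG00000087088, chr19:48954815-48961798, plus strand, core in exon 3), a cytosolic protein that moves to mitochondria in dying cells, had 2064 and 2050 counts, or 84.8 and 90.4 CPM. Its log2 ratio was 0.09 (0.00 to 0.18) and turned to -0.01 under total-count scaling, so its direction rests on the scaling. BAK1 (ENSG00000030110, chr6:33572547-33580293, minus strand, core in exon 4), whose protein sits in the mitochondrial membrane before any death signal, had 1623.57 and 1405.25 counts, or 66.7 and 62.0 CPM. Its log2 ratio was -0.11 (-0.21 to -0.00), and -0.21 under total-count scaling. The pseudogenes BAK1P1 and BAK1P2 had 0 counts.

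Among the BH3-only genes, 5 of 6 were higher in siKAT7, under TMM and under total-count scaling alike, and 1 was lower. Over all genes, 49.3% had a log2 ratio above 0 with TMM and 34.1% with total-count scaling. The median of the 6 was 0.32, and 0.21 under total-count scaling. BBC3, which encodes PUMA, a BH3-only protein that binds all the main anti-death proteins (ENSG00000105327, chr19:47220822-47232766, minus strand, core in exon 3), had 2015 counts in siControl against 2557.07 in siKAT7 (82.8 and 113 CPM). The log2 ratio of BBC3 was 0.45 (0.36 to 0.53), a 1.36-fold difference, and 0.34 under total-count scaling. Of genes with at least 10 CPM, 3.52% had a higher ratio than BBC3.

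BIK, a BH3-only protein of the endoplasmic reticulum (ENSG00000100290, chr22:43110748-43129712, plus strand, core in exon 3), had 694 and 844 counts, or 28.5 and 37.2 CPM. This is a 1.31-fold difference, with a log2 ratio of 0.38 (0.24 to 0.53). PMAIP1 encodes NOXA, which binds MCL-1 in preference to BCL-XL (ENSG00000141682, chr18:59899948-59904306, plus strand, core in exon 2). It had 2213 and 2466 counts, or 90.9 and 109 CPM, and a log2 ratio of 0.26 (0.18 to 0.34). BID links death receptors to mitochondria once caspase-8 has cut it (ENSG00000015475, chr22:17734138-17774770, minus strand, core in exon 4). It had 1822 and 2026 counts, or 74.9 and 89.3 CPM, and a log2 ratio of 0.26 (0.16 to 0.35). For BIK, PMAIP1 and BID the siKAT7 library was the higher one under both scalings, with 0.28, 0.15 and 0.15 under total-count scaling.

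HRK, the BH3-only gene best known from neurons (ENSG00000135116, chr12:116856144-116881441, minus strand, core in exon 1), was the one member past 1.5-fold. It had 48 counts in siControl against 72 in siKAT7 (1.97 and 3.18 CPM), and so the lowest level of the family. Its log2 ratio was 0.68, a 1.60-fold difference with a counting interval of 1.10-fold to 2.37-fold. In its range of 1 to 3 CPM, 11.7% of 2260 genes were called higher by the same rule, and 95% of genes there lay between -1.38 and 1.32. Total-count scaling gave 0.57, under the limit of 0.58 that a 1.5-fold difference requires, and with that scaling 0 of the 10 members and 2.72% of all genes were called higher.

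BCL2L11, which encodes BIM, a direct activator of BAX and BAK (ENSG00000153094, chr2:111119378-111168447, plus strand, core in exon 4), was the BH3-only gene that was lower. It had 773.78 counts in siControl against 568 in siKAT7 (31.8 and 25.0 CPM). The log2 ratio of BCL2L11 was -0.34 (-0.50 to -0.19), and -0.45 under total-count scaling. Of genes with at least 10 CPM, 6.82% had a lower ratio. The noncoding gene MIR4435-2HG overlaps it by 727 exon bases on the opposite strand and had 677.44 and 730.97 counts. When both rows were summed the log2 ratio was -0.06 (-0.17 to 0.05), so for both rows together the difference was within counting error. The sum takes in all counts of MIR4435-2HG, which were more in siKAT7, while the overlap is 727 of the 6658 merged exon bases of BCL2L11. It therefore cannot show how far shared reads shaped the BCL2L11 value.

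**Figure D2:**
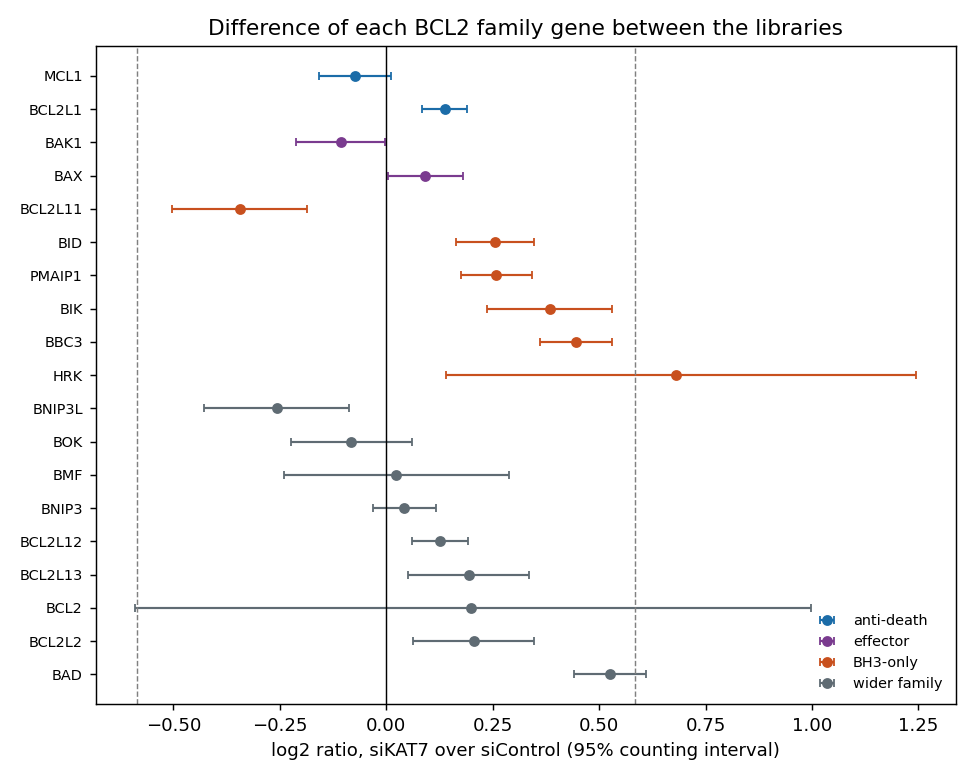
Log2 ratio, siKAT7 over siControl, of the 10 members and of 9 further BCL2 family genes, with 95% counting intervals; dashed lines mark 1.5-fold. HRK is the one gene whose estimate lies past a dashed line, and BCL2L11 is the lowest of the 10 members.

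Levels can be compared between genes per length, as CPM per kilobase of merged exons. In siControl BCL2L1 stood at 69.7, followed by PMAIP1 at 40.7 and BAX at 32.8. BAK1 at 30.2 and BIK at 29.9 had counting intervals that overlapped each other and that of BAX, so the order of these 3 is not resolved. BBC3 at 26.0, MCL1 at 23.0 and BID at 16.8 came next. BCL2L11 at 4.78 and HRK at 0.288 were far below the rest. In siKAT7 BIK at 39.1 and BBC3 at 35.5 stood above BAK1 at 28.0, and the interval of BBC3 overlapped those of BIK and of BAX at 34.9. BCL2L1 at 76.7 and PMAIP1 at 48.7 were again the highest, and BCL2L11 at 3.76 and HRK at 0.463 the lowest. MCL1 at 21.9 and BID at 20.1 had overlapping intervals there. The order depends on the length used: per kilobase of the longest transcript, BAX was second in siControl at 62.5 and MCL1 eighth at 25.6.

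**Figure D3:**
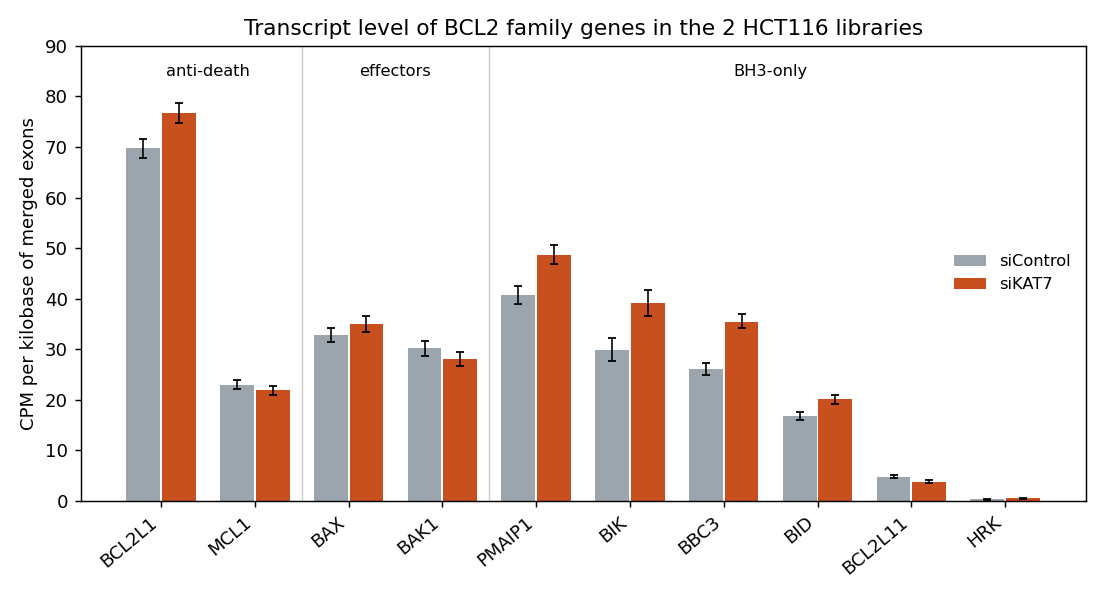
CPM per kilobase of merged exons for the 10 members in siControl (grey) and siKAT7 (orange), with 95% counting intervals as error bars. BCL2L1 is the highest bar pair, BBC3 and BIK show the widest gaps between the libraries, and BCL2L11 and HRK are near the floor.

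Anti-death and pro-death members were compared in several ways. The median log2 ratio was 0.03 for the 2 anti-death genes and 0.26 for the 8 pro-death genes, a difference of -0.22 that the scaling does not affect. This difference of medians was smaller over the wider family, at -0.088. A different measure, the log2 change of the ratio of summed CPM, was -0.12 for the members. Within each library, the summed per-kilobase level of anti-death over pro-death genes was 0.511 in siControl and 0.468 in siKAT7. On counts, which need no scaling, the log2 change of that ratio was -0.12 (-0.18 to -0.06). The ratio was thus slightly lower in siKAT7, and it differed between the pro-death classes, with no test of that difference. Against BH3-only genes the per-kilobase ratio was 0.782 and 0.668, with a log2 change on counts of -0.20 (-0.26 to -0.14). Against the effectors it was 1.47 and 1.56, with a change of 0.07 and an interval that included 0 (-0.01 to 0.15). BCL2L1 dominates the anti-death sum, and without it the per-kilobase ratio was 0.127 and 0.104. Over the wider family the per-kilobase ratio was 0.412 in siControl and 0.368 in siKAT7, with a log2 change on counts of -0.14 (-0.19 to -0.08).

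The single-gene ratios were also set out as 16 pairs of an anti-death with a pro-death gene. This look at pairs was chosen after the values were seen, and pairs that share a gene are not independent. In 11 pairs the ratio of anti-death to pro-death counts was lower in siKAT7 with an interval below 0. In 3 it was higher with an interval above 0, and in 2 the interval included 0. These counts follow from the single-gene values, and no share over pairs of other genes was taken. Of single genes of at least 10 CPM, 56.7% had an interval that excluded 0 on either side. MCL1 over BBC3 changed by -0.52 on the log2 scale (-0.64 to -0.40), and MCL1 over PMAIP1, the pair whose proteins bind each other preferentially, by -0.33 (-0.45 to -0.21). BCL2L1 over BCL2L11 changed the other way, by 0.48 (0.31 to 0.65). MCL1 over BAK1, also known binding partners, changed by 0.03 (-0.10 to 0.17), and BCL2L1 over BAX by 0.04 (-0.06 to 0.15).

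**Figure D4:**
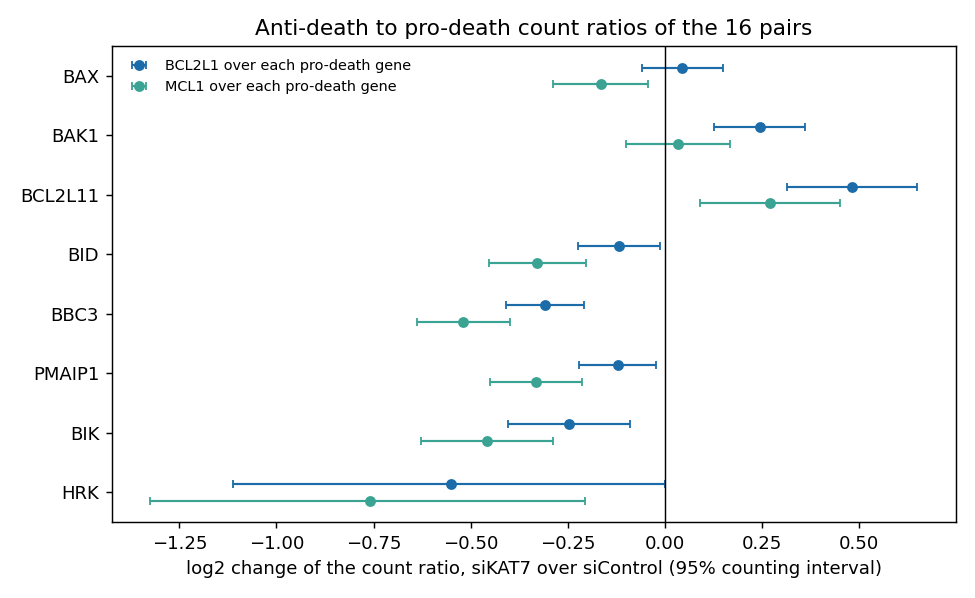
Log2 change, siKAT7 over siControl, of the count ratio of BCL2L1 (blue) or MCL1 (green) over each pro-death gene, with 95% counting intervals. Pairs with BID, BBC3, PMAIP1, BIK and HRK lie below 0, and pairs with BCL2L11 lie above it.

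The share of each member in the family's summed per-kilobase level is another form of the per-kilobase levels above and adds no separate support. BIK went from 10.9% to 12.6%, BBC3 from 9.50% to 11.5% and PMAIP1 from 14.8% to 15.7%. BAK1 went from 11.0% to 9.07%, MCL1 from 8.39% to 7.07% and BCL2L11 from 1.74% to 1.22%. BCL2L1 stayed the largest share, at 25.4% and 24.8%.

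Of 13 further family genes, 9 passed the expression filter, with a median of 0.13. Of these, 7 lay above 0, where 49.3% of all genes did. None passed 1.5-fold, beside 3.92% of all genes higher and 3.91% lower. Under total-count scaling the median was 0.02, where 34.1% of all genes lay above 0. BMF and BNIP3 then turned below 0, and the rest kept their side. BAD, a BH3-only protein held in the cytosol by 14-3-3 proteins, came nearest with 1953 and 2618.76 counts and a log2 ratio of 0.53 (0.44 to 0.61), or 1.44-fold. The gene GPR137 overlaps BAD on the opposite strand, and the summed rows gave 0.52 (0.44 to 0.61). BCL2L2, the anti-death gene of BCL-w, had 781.03 and 838.64 counts and a log2 ratio of 0.21 (0.06 to 0.35). Its readthrough with PABPN1 shares exons and had 3330.59 and 2889.98 counts, and the summed rows gave -0.04 (-0.10 to 0.03). With PABPN1 added as well the sum gave 0.24 (0.19 to 0.30), so the BCL2L2 value depends on which of these rows are counted. BNIP3L, a mitophagy receptor, was lower at -0.26 (-0.43 to -0.09). BCL2 itself had 28 and 30 counts and a log2 ratio of 0.20 (-0.59 to 1.00), which does not resolve a direction. BCL2L13 at 0.19, BCL2L12 at 0.13, BNIP3 at 0.04, BMF at 0.02 and the effector-like BOK at -0.08 made up the rest.

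The authors' deposited table marked 0 of the 10 members as significant, and 310 of the 23510 rows that had a test (1.32%). The unmarked members include BBC3 and BCL2L11, whose adjusted p-values follow, so a missing mark does not by itself mean a large adjusted p-value. The log2 fold in the authors' deposited table was 0.34 for BBC3 and -0.45 for BCL2L11, with adjusted p-values of 8.07e-14 and 1.92e-07 between the 2 libraries. For HRK the log2 fold in the authors' deposited table was 0.58, and its adjusted p was 0.0970. Such p-values set the libraries against each other and say nothing of the spread between cultures.

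Downstream of the family, the apoptosome and caspase genes were level as a group. Of 12 genes, 6 lay above 0 and 6 below, 0 passed 1.5-fold, and the median was -0.03. CYCS, the cytochrome c gene, was at 0.03 and DFFA, the inhibitor of the caspase-activated nuclease, at -0.07. Of 7 measured genes for IAP proteins, which block caspases, and their antagonists, 1 passed on the higher side: BIRC3, an IAP gene driven by NF-kB, had 43 and 81 counts and a log2 ratio of 1.01 (0.47 to 1.58). Of 11 measured genes for death receptors and their complex, 1 passed on the lower side, with a median of -0.00. It is TNFRSF10C, a decoy receptor for TRAIL, named after its values were seen, with 52.99 and 21.09 counts and a log2 ratio of -1.21 (-2.04 to -0.48). The 2 genes of that list with the most counts were TNFRSF10B, a death receptor for TRAIL, at 0.25 (0.19 to 0.31), and TNFRSF1A, a receptor for TNF, at -0.00 (-0.08 to 0.07). BIRC3 and TNFRSF10C had low levels, with means of 2.67 and 1.55 CPM. Among genes of 1 to 3 CPM, 11.7% were called higher and 12.6% lower by the same rule. The ratios of BIRC3 and TNFRSF10C lay inside the spread of -1.38 to 1.32 given with HRK for such genes. The 10 genes for turnover of MCL-1 and BH3-only proteins had a median of 0.00 and 0 passed. Among them HUWE1, a ubiquitin ligase for MCL-1, was at -0.16.

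The list with the most genes past 1.5-fold was that of transcription factors known to act on BH3-only genes. Of 14 measured genes, 5 passed 1.5-fold on the higher side and 0 on the lower, beside 3.92% and 3.91% of all genes. All 5 have at least 10 CPM, where 1.39% of genes were called higher. The median of the list was 0.16, and total-count scaling left 4 genes past the limit, beside 2.72% of all genes. The list was chosen with earlier results of these data known, so its count beside these shares is a description only. JUN, a target and partner of stress kinase signalling, had 10404 and 20656 counts and a log2 ratio of 1.09 (1.06 to 1.13). DDIT3, which encodes the stress factor CHOP, had 6040.71 and 11459.98 counts and a log2 ratio of 1.03 (0.98 to 1.07). CEBPB and ATF3, further stress-responsive factors, were both at 0.78, and ATF4, the fifth, was at 0.61 and at 0.50 under total-count scaling. FOXO3, a known activator of BCL2L11, was at 0.01, FOXO1 at -0.36 (-0.64 to -0.09) and FOXO4 at 0.32 (0.17 to 0.47). Any part of the FOXO genes in the BCL2L11 value was not tested. The genes FOXO3, FOXO1, FOXO4 and ATF4 fall outside the naming rule and were chosen after their values were seen.

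Because DDIT3 and ATF4 were higher, the promoters of the members were searched for TGATGNAA, the element bound by CHOP and ATF4 with C/EBP partners, on both strands. This search was also chosen after the values were seen. Of the 8 members with an entry in the RefSeq promoter table (GRCh38.p14), 1 held it in the 250 bases before the start: HRK. The element was found in 3.14% of 35116 promoter windows of that length, and a match is no evidence of binding. The HRK window, chr12:116881442-116881691 on the minus strand, is printed 5′ to 3′ toward the gene with the element in capitals.
HRK promoter: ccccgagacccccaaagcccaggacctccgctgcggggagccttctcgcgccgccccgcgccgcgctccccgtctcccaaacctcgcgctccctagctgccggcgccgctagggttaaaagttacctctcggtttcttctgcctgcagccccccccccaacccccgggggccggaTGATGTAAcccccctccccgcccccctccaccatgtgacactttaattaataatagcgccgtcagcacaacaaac
The window lies upstream of the annotated gene and outside its exons. For the GC box, GGGCGG, 6 of the 8 members had a match, against 42.6% of all windows. For both motifs a member counted if any of its windows matched, and BCL2L1 and BID have several windows. The counts of members and the shares of windows are thus not like for like.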

How the data were processed

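RNA-seq of 2 HCT116 libraries was used, siControl and siKAT7. The authors deposited expected counts per gene, estimated with RSEM 1.3.3 on GRCh38.p13 per the submitters' processing notes. The sources used here do not give the aligner, annotation release, strand setting or RNA selection. The authors also deposited their own comparison, which lists for each gene a fold (siKAT7 over siControl ratio), the log2 of it, and p-values with and without adjustment, by a tool that the sources used here do not give.

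Count columns named for HBO1 were taken as siKAT7, the alias of that gene, and repeated columns (0 differing cells) were used once. The 331 rows without a gene name (1.11% of counts in siControl and 1.67% in siKAT7) were left out. Counts were rounded and scaled with TMM in edgeR 4.0.16 (R 4.3.3), with factors 1.04 and 0.964. Log2 ratios used CPM with a prior count of 0.5, and exact Clopper-Pearson 95% intervals came from the split of each gene's counts. Without molecular identifiers PCR copies count as separate reads, so intervals cover counting error only. Genes averaging 1 CPM or more were kept, and a call needed a 1.5-fold difference with an interval excluding 0. Intervals for count ratios are exact conditional odds-ratio intervals. Genes were matched by Ensembl identifier, 58516 of 60623 in GENCODE 29, and all 108 listed symbols matched.

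The members and lists were chosen with earlier results of these data known. The text names all members, KAT7, kept genes of the wider family and, per pathway list, up to 4 genes past 1.5-fold with at least 100 counts in all, otherwise the 2 with the most counts; not every gene that this takes is reported, and 1 gene of the transcription factor list is not reported here. The procedure was tested on simulated counts. Alternatives were total-count and DESeq2 1.42.0 scaling, other prior counts, filters, limits, lengths and row sums, and the authors' folds.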

Additional observations from a re-analysis of the deposited data

How the results depend on the processing

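With 1 library per group, depth limits HRK and BCL2 most, and no value shows the spread between cultures. No paired analysis was possible because each group has 1 library. Of the alternative values for KAT7 and the family and list summaries, 59 stayed close to the reported value, 18 moved and 1 reversed. For single genes 97 stayed close, 19 moved and 3 reversed. A single-gene value inside the counting interval of the reported one was listed as close, so genes with wide intervals stay close more readily. The 3 reversals are not all changes of sign. Under total-count scaling BMF was at -0.083, listed as close, and BNIP3 at -0.065, listed as moved, and both are above 0 with TMM. The median over the 10 members, 0.20, was 0.089 with total-count scaling and 0.089 with the authors' folds, by the construction of that scaling. BAX reversed to -0.015 under both, and BCL2L2 reversed to -0.039 when summed with its readthrough, and was 0.24 with PABPN1 added. The difference of anti-death and pro-death medians, -0.22, was -0.088 over the wider family, and the log2 change of the ratio of summed CPM was -0.12. Over the wider family the log2 change of the per-kilobase ratio was -0.16. The log2 change of the per-kilobase ratio, -0.13, reversed to 0.087 against effectors alone, and was -0.23 against BH3-only genes alone and -0.29 without BCL2L1, which was tried after seeing the data, as were the sums with ABALON, MIR4435-2HG and GPR137 and the deposited gene length. The 1 member called higher became 0 with total-count scaling, the authors' folds, a 2-fold limit, a 99% interval or a mean of at least 10 CPM. At the lowest fold limit tried, 3 members were higher and 1 lower, beside 10.1% and 10.9% of all genes. Over the pathway lists 6 of 72 measured genes were higher and 2 lower, beside 3.92% and 3.91% of all genes. These became 10 and 7 at the lowest fold limit, beside the 10.1% and 10.9% above. At 2-fold they were 3 and 1, beside 1.35% and 1.09% of all genes. At a mean of at least 10 CPM 0 list genes were lower, beside 0.766% of genes at that level. The cause of other moves was not tested.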

Other observations

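Genes for partners of BCL2 proteins in the mitochondrial membrane lay mostly below 0. Of 9 measured genes, 8 were below 0 and 1 was above, with a median of -0.20, where 49.3% of all genes lay above 0. The interval lay below 0 for 5 of the 9, where 22.0% of all genes had such an interval, and 1 gene, OMA1, passed 1.5-fold. That share covers poorly counted genes too. Of genes of at least 10 CPM, which include the 3 VDAC genes, 56.7% had an interval that excluded 0 on either side. OMA1, a protease of the inner membrane, had 81 and 42 counts and a log2 ratio of -0.84 (-1.42 to -0.29). Its mean was 2.59 CPM, and among genes of 1 to 3 CPM 12.6% were called lower by the same rule. The OMA1 ratio lay inside the spread of -1.38 to 1.32 given with HRK for such genes. The 3 VDAC genes, which encode the main pores of the outer membrane, were named after their values were seen. VDAC1 had 4810.93 counts in siControl and 3352.93 in siKAT7, with a log2 ratio of -0.42 (-0.48 to -0.35). VDAC3 was at -0.37 (-0.54 to -0.20) and VDAC2, whose protein holds BAK, at -0.17 (-0.22 to -0.12).

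Among partners of BH3-only proteins, the 14-3-3 genes divided. SFN, the epithelial 14-3-3 gene, had 19002 and 24702 counts and a log2 ratio of 0.48 (0.45 to 0.51). YWHAZ had 13627.98 and 9802.93 counts and a log2 ratio of -0.37 (-0.41 to -0.34). YWHAE at -0.24, YWHAQ at -0.23 and YWHAB at -0.21, named after their values were seen, also had intervals below 0. Of the 9 genes of that list, 0 passed 1.5-fold. DYNLL1, a dynein light chain that binds BIM, was at 0.27 (0.22 to 0.33).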
